A study of Homo sapiens with 3 samples.

Results

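Aminoacyl-tRNA synthetases are the enzymes that load each amino acid onto its transfer RNA, and their genes are described here across 3 arrays of RH30, a human alveolar rhabdomyosarcoma cell line. The genes were chosen by symbol (a letter for the amino acid followed by ARS, with an optional 1 or 2, and EPRS1, FARSA and FARSB), from probe sets that name a single gene. This gave 37 of 22277 probe sets and 26 of 11963 genes, 16 for enzymes of the cytosol and 10, whose symbols end in 2, for enzymes of the mitochondrion. A total of 25 of the 26 genes passed the filter on dim probe sets, which kept those averaging 117 signal units or more. The exception was RARS2, the mitochondrial arginine enzyme, whose 2 probe sets read at most 12.4 on any array. Probe sets of MARS1, QARS1 and TARS2 also name a microRNA gene and were therefore left out, and the other genes of the family were not analysed here.

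The 3 arrays hold total RNA of RH30 cells given anti-MYCN PNA at 10 µM for 12 hours, of cells given a mutated PNA at 10 µM for 12 hours, and of untreated cells of the 12 hour time point. A PNA, or peptide nucleic acid, carries DNA bases on a backbone like that of a peptide, and is here directed against the MYCN gene; the mutated PNA is labelled as a mutated form of it. All cells were grown in the same serum-containing medium, and they are a single cell line. There was 1 array per condition, which leaves every value without a replicate error and every difference without a test. The array called untreated has a title and a treatment text that say so but a source name that says mutated PNA, and any statement on a single control rests on its title.

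Each synthetase recognises 1 amino acid and its transfer RNAs, spends ATP to activate the amino acid and joins it to the transfer RNA, and EPRS1 carries 2 such activities, for glutamate and proline, in 1 protein. Mitochondria make their own proteins with a separate set of enzymes, all encoded in the nucleus, except that GARS1 and KARS1 supply both compartments. In the mammalian cytosol several synthetases, among them EPRS1, IARS1, KARS1, LARS1 and RARS1, sit in 1 multi-synthetase complex held together by the AIMP proteins. Many cytosolic synthetase genes belong to the programme that the transcription factor ATF4 switches on when amino acids run short or proteins misfold, through the C/EBP-ATF response element, whose core reads TGATGNAA. MYC-family factors bind the E-box CACGTG.

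Promoters of 23 of the 26 genes are in the RefSeq promoter table of GRCh38.p14, which gives 250 bases before and 50 after each transcription start. The 3 whole promoters below belong to AARS1 and to the 2 genes at least 1.5-fold below both controls. AARS1 was the synthetase gene furthest above both by its log2 difference to the nearer control, 0.565 against 0.561 in SARS2. To the mean of the controls SARS2 was further above, at 0.66 against 0.58. TGATGNAA, on either strand, is in capitals.
AARS1 (chr16:70289457-70289756, minus strand): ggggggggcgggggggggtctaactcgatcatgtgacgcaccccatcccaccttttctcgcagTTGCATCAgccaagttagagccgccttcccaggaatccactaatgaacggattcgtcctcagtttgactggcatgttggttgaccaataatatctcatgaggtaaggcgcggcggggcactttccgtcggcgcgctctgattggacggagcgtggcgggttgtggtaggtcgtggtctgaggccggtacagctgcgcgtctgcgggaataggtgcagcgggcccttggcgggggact
RARS1 (chr5:168486221-168486520, plus strand): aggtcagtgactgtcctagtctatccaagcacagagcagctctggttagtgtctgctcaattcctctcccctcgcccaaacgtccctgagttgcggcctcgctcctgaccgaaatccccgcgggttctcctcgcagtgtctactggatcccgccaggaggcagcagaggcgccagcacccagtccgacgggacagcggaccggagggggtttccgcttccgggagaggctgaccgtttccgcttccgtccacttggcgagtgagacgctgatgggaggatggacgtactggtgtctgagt
YARS2 (chr12:32755848-32756147, minus strand): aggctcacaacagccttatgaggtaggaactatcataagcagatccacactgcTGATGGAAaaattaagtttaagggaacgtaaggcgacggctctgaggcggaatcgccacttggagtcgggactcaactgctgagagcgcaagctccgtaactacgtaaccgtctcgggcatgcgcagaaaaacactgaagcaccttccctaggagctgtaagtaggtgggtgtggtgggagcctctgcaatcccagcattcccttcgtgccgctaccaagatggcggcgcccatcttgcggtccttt

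The core TGATGNAA, or TTNCATCA on the other strand, was found in 7 of the 31 synthetase promoters (22.6%), of AARS1, CARS1, GARS1, IARS1, NARS1, TARS1 and YARS2, and in 3.62% of all 35116 promoters of the same length. Its form TGATGCAA, a special case of the same letters, was found in 5 (16.1%), against 0.866% of all promoters. The E-box CACGTG was found in 2 (6.45%), of CARS2 and IARS1, against 7.26% of all promoters. The stretches around the core in the other 5 genes are shown because their differences on the anti-MYCN PNA array run in both directions, with the match in capitals.
CARS1 (chr11:3057392-3057451, minus strand): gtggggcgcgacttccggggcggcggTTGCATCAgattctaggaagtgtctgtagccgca
GARS1 (chr7:30594819-30594878, plus strand): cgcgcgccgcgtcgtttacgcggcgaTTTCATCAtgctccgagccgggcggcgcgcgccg
TARS1 (chr5:33440941-33441000, plus strand): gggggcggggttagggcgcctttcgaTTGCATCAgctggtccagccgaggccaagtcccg
IARS1 (chr9:92293677-92293736, minus strand): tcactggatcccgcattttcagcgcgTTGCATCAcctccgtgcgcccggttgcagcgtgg
NARS1 (chr18:57621789-57621848, minus strand): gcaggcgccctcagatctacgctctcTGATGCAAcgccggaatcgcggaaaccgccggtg
The match began 2 bases before the transcription start in CARS1, 33 before it in GARS1, 13 before it in IARS1, 187 before it in AARS1 and 197 before it in YARS2, and 2 and 14 bases after it in TARS1 and NARS1. A match of letters is a description and does not show that a factor binds there.

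MYCN, the targeted gene, read 2202 on the anti-MYCN PNA array, against 2804 on the mutated PNA and 3313 on the untreated array by its brightest probe set. Its log2 difference to the nearer control was −0.35. Between the 2 controls, 95% of genes of like signal differed by up to 0.37, so the difference to the nearer control was within that range. Against untreated alone MYCN differed by −0.59, beyond that range. Its other 2 probe sets were dim on every array. One read 17.4 against 29.8 in mutated PNA and 55.3 in untreated cells, and the other 11.3 against 9 and 8.2. Muscle lineage markers were present, 9 of 10 passing the filter with MYOD1 among them, whereas 1 of 6 epithelial markers (KRT18), 1 of 6 endothelial markers (ENG) and none of 5 leukocyte and 6 fibroblast markers on the array did. ENG read 458 in anti-MYCN PNA cells, against 196 in mutated PNA and 205 in untreated cells, and KRT18 read 397 against 365 and 658. The summed signal of the 10 muscle markers was 45068 on the anti-MYCN PNA array, against 34223 on the mutated PNA and 32534 on the untreated array. ACTC1 made up most of it, at 27505 against 19864 and 17091. Of the 9 kept markers 6 were above both controls, where 47.9% of all genes were, and 3 lay between them. The summed signal of 12 reference transcripts was also higher, at 148988 against 108688 and 108630. The bacterial poly-A spikes, control RNAs added before labelling, were lower on the anti-MYCN PNA array in all 24 probe sets, with a median ratio of 0.382 to mutated PNA and 0.410 to untreated. The ratio of 3′ to 5′ signal of beta-actin, a sign of RNA integrity, was 1.99 on the anti-MYCN PNA array, 1.73 on the mutated PNA array and 2.11 on the untreated array. The part of these array differences in the synthetase values was not tested.

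On the anti-MYCN PNA array the synthetase genes differed from the controls in both directions. Compared with both controls, 9 of 25 were higher and 12 lower by any amount, against 47.9% and 37.6% of all 6745 genes, and 4 lay between the controls. Under median scaling the split was 5 higher and 16 lower, against 32.03% and 53.28% of all genes, and under quantile normalization it was 9 and 12. At 1.5-fold or more against both controls none was higher and 2 were lower, YARS2 and RARS1, which is 8% of the 25, against 8.27% of all genes higher and 7.35% lower. Both were also at least 2-fold lower, where 1.26% of all genes were, and none was 2-fold higher, where 1.16% were. Against mutated PNA alone 3 genes were 1.5-fold higher (AARS1, CARS2 and SARS2), where 13.1% of all genes were, and 2 lower, where 10.7% were. Against untreated alone none was higher, where 13.1% of all genes were, and 2 were lower, where 10.3% were. These comparisons share the anti-MYCN PNA array. The differences reached from −1.10 in YARS2 to 0.57 in AARS1 on the log2 scale, each taken to the nearer control. Because the RNA is from whole cultures, fewer cells with a transcript and less of it per cell cannot be told apart.

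**Figure D1:**
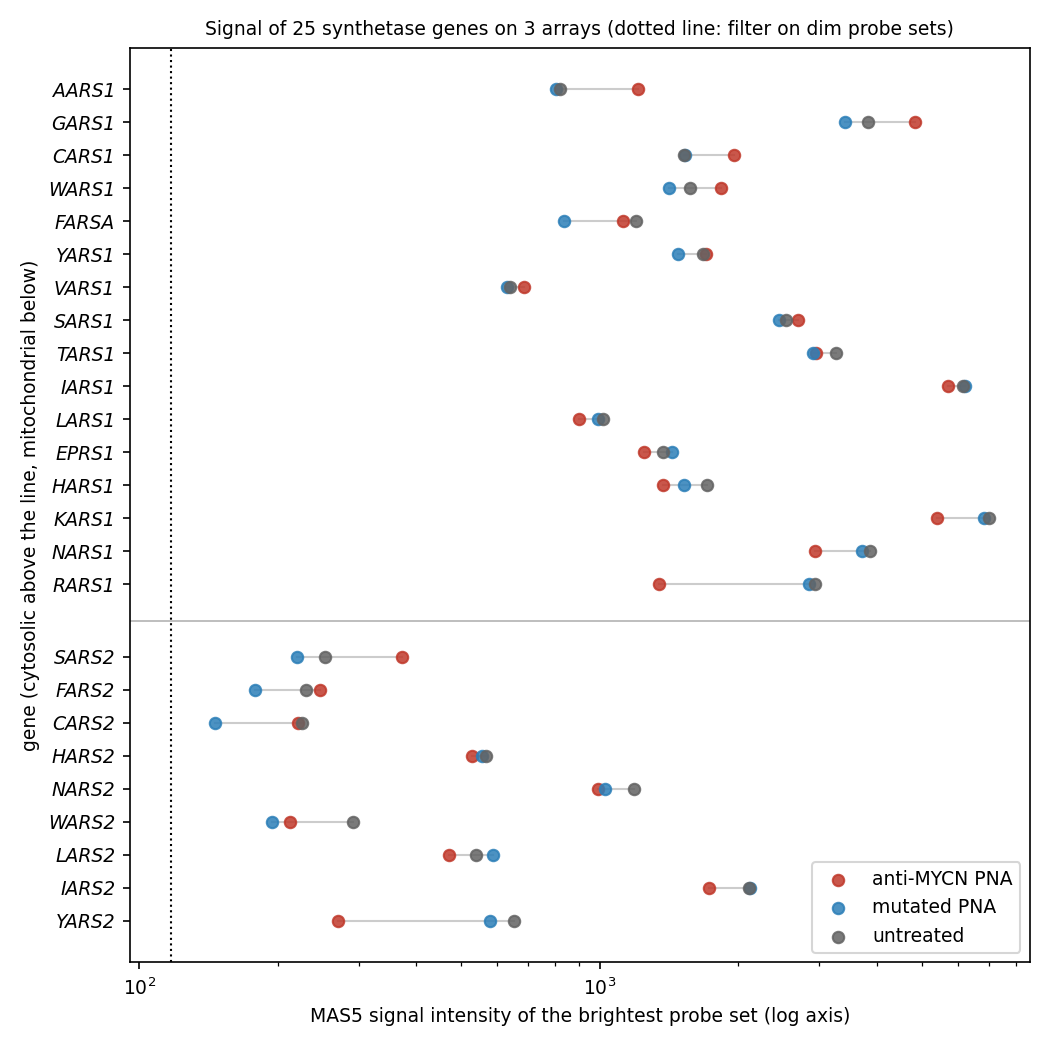
MAS5 signal intensity (log axis) of the brightest probe set of each of the 25 synthetase genes that passed the filter, with 1 point for each array and cytosolic genes above mitochondrial ones. RARS1 and YARS2 have their anti-MYCN PNA point far below both control points, at 1344 and 270.2.

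RARS1, the cytosolic arginine enzyme, had a signal of 1344 in anti-MYCN PNA cells, against 2849 in mutated PNA and 2937 in untreated cells. The controls lay close together, and the anti-MYCN PNA value was 47.2% of mutated PNA and 45.7% of untreated, log2 differences of −1.08 and −1.13. Its signal class, 1 of 10 classes by mean signal, held 674 genes, 95% of which had control differences within 0.37 (the like-signal range). In that class 2 of the 674, RARS1 among them, were as far below both controls as RARS1. YARS2, the mitochondrial tyrosine enzyme, read 270.2, against 579 in mutated PNA and 650.1 in untreated cells. It was 46.7% of mutated PNA and 41.6% of untreated, with log2 differences of −1.10 and −1.27 where the like-signal control range was 0.50. In its class 8 of 675 genes, YARS2 among them, were as far below both controls as YARS2. RARS1 and YARS2 were each measured by a single probe set.

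All 5 measured synthetases of the multi-synthetase complex, of 8 listed, were lower than both controls, where 37.6% of all genes were. The other listed synthetases of the complex had no value here. By the brightest probe set only RARS1 was lower by 1.5-fold or more. The count below both controls was also 5 under quantile normalization, where 39.77% of all genes were lower, and under median scaling, where 53.28% were. KARS1, the lysine enzyme, read 5412, against 6844 in mutated PNA and 7001 in untreated cells, a difference of −0.34 to the nearer control where the like-signal range was 0.28. Its dimmer probe set was −0.025 to the nearer control. EPRS1, for glutamate and proline, read 1250 against 1435 and 1375 by its brightest probe set, in the same order of arrays. Its dimmer probe sets were further below, at −0.56 and −1.25 to the nearer control. LARS1, the leucine enzyme, read 902 against 991 and 1017, by an _x_at probe set whose probes also match other transcripts, so its level is uncertain. IARS1, the isoleucine enzyme, read 5706 against 6219 and 6164. The last 3 differed from the nearer control by −0.14, −0.14 and −0.11, each within its like-signal range (0.28 to 0.42). AIMP1, a scaffold protein of the complex, read 1109, against 1450.1 in mutated PNA and 1330 in untreated cells. It was −0.26 to the nearer control, within its like-signal range of 0.42, and it was the scaffold gene of 3 listed with a value. The median of the 5 synthetases against the mean of the controls was −0.17, and that of all genes 0.064.

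NARS1 and HARS1, which are no members of the complex, were also lower than both controls. NARS1, the asparagine enzyme, read 2928, against 3711 in mutated PNA and 3863 in untreated cells, −0.34 to the nearer control where the like-signal range was 0.28. HARS1, the histidine enzyme, read 1375 against 1525 and 1712, and its difference to the nearer control of −0.15 was within the like-signal range of 0.42.

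AARS1, the alanine enzyme, was the furthest above both controls among the cytosolic genes. It read 1213, against 804 in mutated PNA and 819 in untreated cells, 1.51-fold and 1.48-fold, and the like-signal control range of 0.42 was smaller than both log2 differences (0.59 and 0.57). Under quantile normalization the smaller difference was 0.60 and passed the 1.5-fold threshold, and under median scaling it was 0.37. GARS1, the glycine enzyme of both compartments, read 4830 against 3411 and 3835, 1.42-fold and 1.26-fold, with a log2 difference of 0.33 to the nearer control where the range was 0.28, and of 0.13 under median scaling. CARS1, the cysteine enzyme, read 1956 against 1536 and 1524, 1.27-fold over mutated PNA and 1.28-fold over untreated, within its range of 0.42. WARS1, the tryptophan enzyme, which is also induced by interferon, read 1833 against 1414 and 1573, 0.22 above the nearer control.

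Of the remaining cytosolic genes SARS1, VARS1 and YARS1 were slightly above both controls, and FARSA and TARS1 lay between them. SARS1, the serine enzyme, read 2696 in anti-MYCN PNA cells, against 2458 in mutated PNA and 2545 in untreated cells, and VARS1, the valine enzyme, read 686 against 631 and 638. Both were 0.083 and 0.10 above the nearer control, and both lay below both controls under median scaling, at −0.046 and −0.059. YARS1, the tyrosine enzyme of the cytosol, read 1704 against 1479 and 1678. FARSA, the alpha subunit of the phenylalanine enzyme, read 1125 between 835 in mutated PNA and 1198 in untreated cells, 0.43 above mutated PNA and −0.090 to untreated, with a like-signal range of 0.42. TARS1, the threonine enzyme, read 2953 between 2909 and 3267.

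Beyond the like-signal control range against both controls lay AARS1 and GARS1 on the higher side, 2 of 25 (8%), where 11% of all genes did. On the lower side it was KARS1, NARS1, RARS1 and YARS2, 4 of 25 (16%), where 10.6% did. Taken singly, 8 of 25 genes lay beyond the range against mutated PNA, where 31.1% of all genes did, and 6 against untreated, where 30.2% did.

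**Figure D2:**
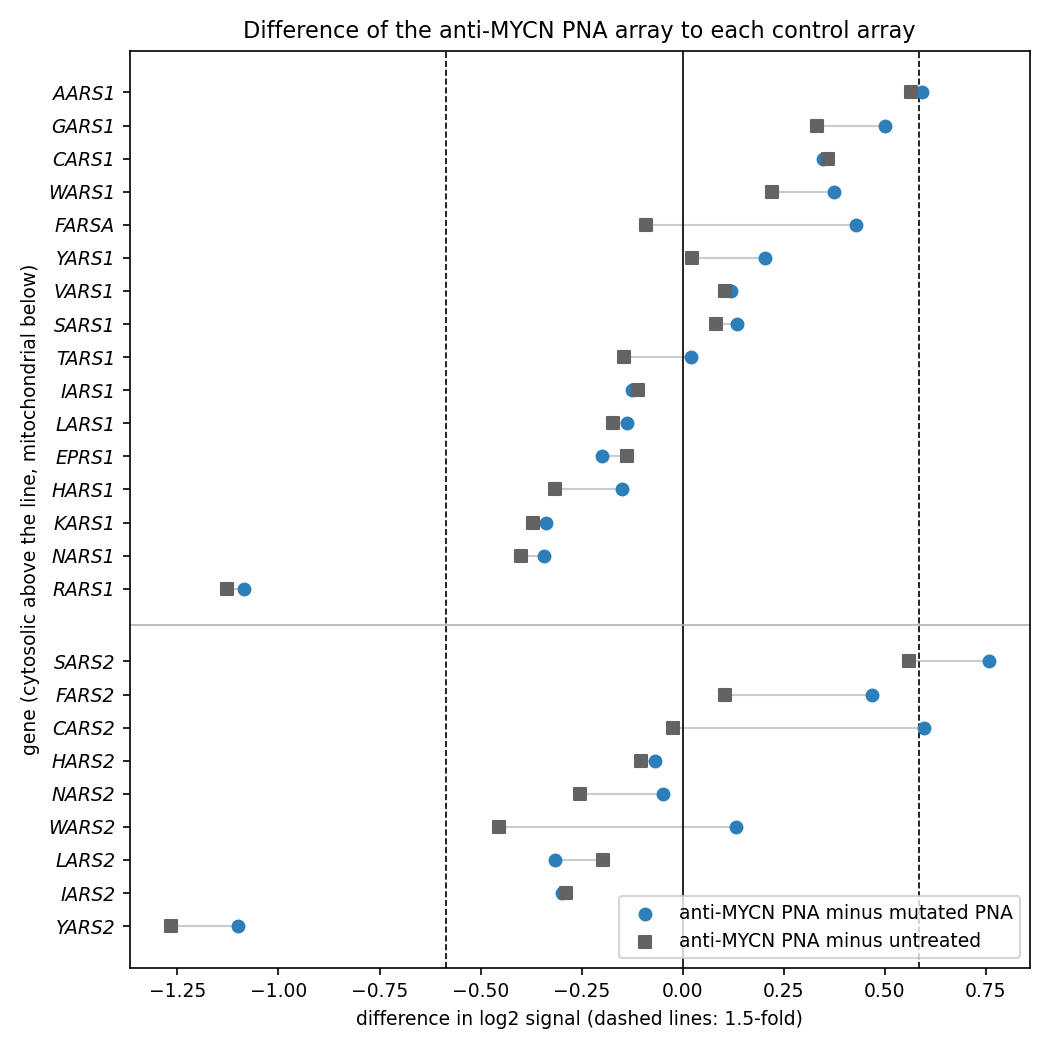
Difference in log2 signal of the anti-MYCN PNA array to the mutated PNA array (circles) and to the untreated array (squares) for each gene, with dashed lines at 1.5-fold. RARS1 and YARS2 lie below the lower line against both controls, and AARS1, CARS2 and SARS2 straddle the upper one.

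Of the 9 mitochondrial genes 2 were higher than both controls, 5 lower and 2 between them, and YARS2 was past 1.5-fold. SARS2, the mitochondrial serine enzyme, read 373 in anti-MYCN PNA cells, against 221 in mutated PNA and 253 in untreated cells, 1.69-fold and 1.48-fold. Its log2 difference of 0.56 to the nearer control was within the like-signal range of 0.64. IARS2, for isoleucine, read 1728 against 2125 and 2111, −0.29 to the nearer control where the range was 0.37. LARS2, for leucine, read 472 against 587 and 540.2, and HARS2, for histidine, read 529 against 555 and 568. NARS2, for asparagine, read 994 against 1028 and 1186. FARS2, for phenylalanine, read 248, against 179 in mutated PNA and 230 in untreated cells, above both controls with mutated PNA the lowest. CARS2, for cysteine, read 222 between 147 in mutated PNA and 225 in untreated cells, again with mutated PNA the lowest. It was the gene that was 1.5-fold lower in mutated PNA than on both other arrays, 1 of 25, where 1.29% of all genes were. WARS2, for tryptophan, read 213 against 194 in mutated PNA and 292 in untreated cells.

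Set side by side, the cytosolic genes had a median log2 difference of 0.023 to the mean of the controls over 16 genes, and the mitochondrial genes one of −0.15 over 9, against 0.064 over all 6745 genes. The medians were 0.17 apart, and 0.011 apart when _x_at and _s_at probe sets were left out. Against mutated PNA the medians were 0.071 for cytosolic and −0.048 for mitochondrial genes, and against untreated −0.10 and −0.20. The cytosolic median was negative under median scaling, which put the median of all genes at −0.13. Of the cytosolic genes 7 were above both controls and 7 below, and of the mitochondrial genes 2 were above and 5 below. Per amino acid the picture was mixed: in 9 pairs with both genes measured the cytosolic gene had the higher difference in 5 and the lower in 4, with a median gap of 0.068. Against mutated PNA alone it was higher in 4 and lower in 5, with a median of −0.040, and against untreated alone higher in 5 and lower in 4, with a median of 0.023. The cysteine pair, which sets the median of 0.068, had a gap of −0.25 against mutated PNA and of 0.38 against untreated. The gap was widest for tyrosine, where YARS1 and YARS2 differed by 1.30, at 0.11 and −1.18 to the mean of the controls. It ran the other way for serine, where SARS1 was 0.55 below SARS2. HARS1 and HARS2 lie head to head with transcription starts 85 bases apart and share 184 bases of their promoter windows; their differences to the mean of the controls were −0.23 and −0.086. These 2 genes are close paralogues, so a probe set of one may also pick up the other.

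**Figure D3:**
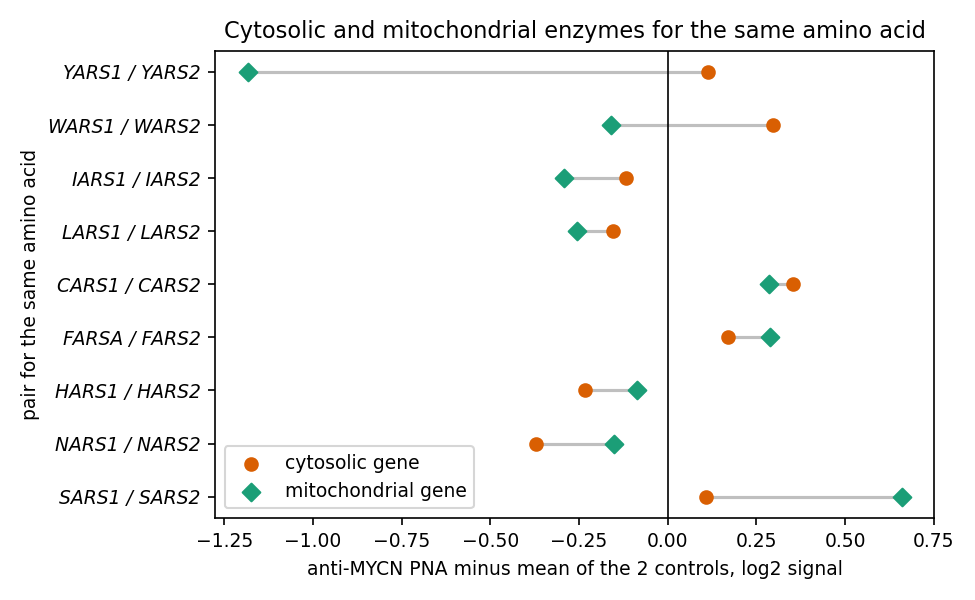
Difference of the anti-MYCN PNA array to the mean of the 2 control arrays, in log2 signal, for the cytosolic (circles) and mitochondrial (diamonds) gene of each of 9 amino acids. YARS1 and YARS2 stand furthest apart, at 0.11 and −1.18.

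Several genes were read by more than 1 probe set, and the probe sets often differed in size of difference. Of the 37 probe sets 33 passed the filter, and 7 genes had more than 1 of these. EPRS1 had 3, all lower than both controls. The dimmest of them read 145 in anti-MYCN PNA cells, against 348 in mutated PNA and 344 in untreated cells, −1.25 to the nearer control. The middle one read 679 against 1083 and 1002, −0.56, and the brightest, given above, −0.14. With the median over probe sets in place of the brightest, EPRS1 was thus −0.56, KARS1 was −0.18, within its like-signal range of 0.28, and WARS1 lay between the controls. CARS1 was higher than both controls by both of its probe sets, and the dimmer read 384 against 243 and 236, 0.66 above the nearer control. KARS1 was lower by both, with 3948 against 4017 and 4218 by the dimmer. The direction was not shared within the other 4 genes. The dimmer FARS2 probe set read 110.1 against 119 and 158, lower than both controls where the brighter was higher. The second WARS1 probe set read 1499 between 1425 in mutated PNA and 1766 in untreated cells, and the second LARS2 one 358 between 326 and 441. The dimmer FARSA probe set read 567 against 580 and 685. Over probe sets rather than genes, 1 of 33 was at least 1.5-fold higher than both controls, where 8.07% of all probe sets were. On the lower side it was 3 of 33, where 8.05% were.

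**Figure D4:**
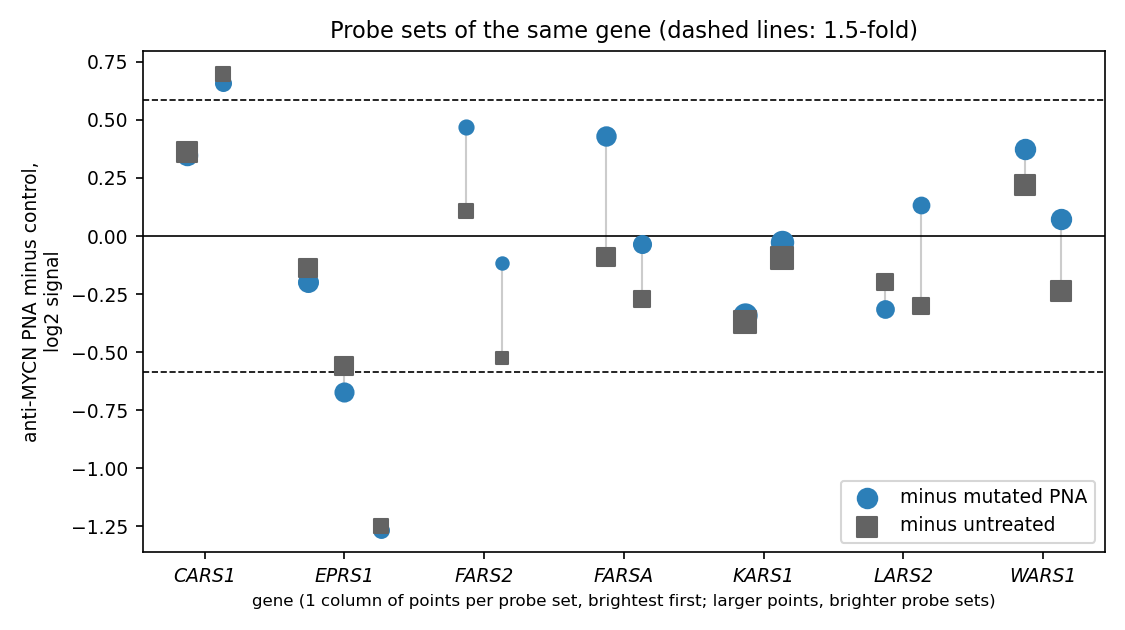
Difference in log2 signal of the anti-MYCN PNA array to mutated PNA (circles) and untreated (squares) for each kept probe set of the 7 genes with more than 1, brightest probe set first. The EPRS1 probe sets run from −0.14 to −1.25 to the nearer control.

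Between the controls most synthetase genes had the lower signal in mutated PNA cells. This held for 20 of 25 genes (80%), where 49.8% of all genes did, and for 13 of 16 cytosolic and 7 of 9 mitochondrial ones. The sizes were small: at 1.5-fold or more 2 genes were lower, where 2.27% of all genes were, and none was higher, where 2.4% were. These 2 were CARS2 at −0.62 and WARS2 at −0.59. The median was −0.047 for the cytosolic and −0.20 for the mitochondrial genes, and 0.00069 for all genes. At the 75th percentile filter, which kept 4 mitochondrial genes, the mitochondrial median was −0.012. FARSA, at −0.52, was the gene of the 25 whose controls differed beyond the like-signal range, 1 of 25, where 5.04% of all genes did. The direction rests on the title of the untreated array.

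Grouped by ATF4, the synthetases often named as ATF4-induced lay on both sides of the controls. Of the 11 measured of 12 listed, 6 were above both controls (AARS1, CARS1, GARS1, WARS1, SARS1 and YARS1) and 4 below (NARS1, EPRS1, LARS1 and IARS1), with TARS1 between. These are 54.55% and 36.36% of the 11, near the 47.9% and 37.6% of all genes. Median scaling gave 4 above and 6 below, where 32.03% and 53.28% of all genes were. None was 1.5-fold from both. Their median against the mean of the controls was 0.11, turning to −0.081 under median scaling, and that of the 5 other cytosolic genes (FARSA, HARS1, KARS1, RARS1 and VARS1) was −0.23. Of the 7 genes with TGATGNAA in the promoters shown above, AARS1, CARS1 and GARS1 were higher by 0.57, 0.35 and 0.33 to the nearer control, TARS1 lay between the controls, and IARS1, NARS1 and YARS2 were lower, at −0.11, −0.34 and −1.10.

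Other genes of the ATF4 programme lay higher: of 25 measured of 30 listed, 7 exceeded both controls by 1.5-fold or more, where 8.27% of all genes did, and 1 was as far below both, where 7.35% were. By any amount 20 (80%) were above both, where 47.9% of all genes were, and under median scaling 15 (60%), where 32.03% were. Their median was 0.37, where that of all genes was 0.064. The 12 reference transcripts also lay higher, with 9 (75%) above both controls, 3 below, and a median of 0.13. Of these 12, 4 exceeded both controls by 1.5-fold or more. Under median scaling 5 of the reference transcripts were above both and 7 below. ATF4 itself read 5491 in anti-MYCN PNA cells, against 3187 in mutated PNA and 2964 in untreated cells. The asparagine synthetase ASNS, which makes the amino acid and is no tRNA synthetase, read 1338 against 879 and 769.7. SLC7A5, a transporter of large neutral amino acids, read 2862 against 1860 and 1837. SLC7A11, DDIT3, ATF5 and TRIB3 also passed, at 0.92, 0.95, 0.83 and 0.67 to the nearer control. SLC7A11 read 214 against 78.9 and 113.5, so it passed the filter of 117 only through its anti-MYCN PNA signal. Its difference was also within its like-signal range of 0.94. The gene that far below both, PSPH of serine synthesis, read 129 against 265 and 207. Its difference to the nearer control, −0.68, was within its like-signal range of 0.72. By any amount 2 of the 25 were below both, where 37.6% of all genes were. The other was MTHFD2, with 3626 against 4861 and 4692, −0.37 to the nearer control where the range was 0.28.

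Genes that make, export or use transfer RNAs were mixed too. Of 16 measured genes of tRNA maturation and export 1 exceeded both controls by 1.5-fold or more, where 8.27% of all genes did, and none was as far below, where 7.35% were. It was TRMT61A, a tRNA methyltransferase, with 487 against 274 in mutated PNA and 284 in untreated cells. XPOT, which exports transfer RNA from the nucleus, read 1307 against 1855 and 1886, −0.51 to the nearer control, and SSB, the La protein that binds new polymerase III transcripts, read 2540 against 3376 and 3449. By any amount 8 of the 16 were above both controls and 7 below, where 47.9% and 37.6% of all genes were. The median of the 16 against the mean of the controls was 0.084. Of 10 measured partners of mitochondrial translation none was 1.5-fold higher, where 8.27% of all genes were, and 1 was lower, where 7.35% were. It was GATC, a subunit of the enzyme that makes mitochondrial glutaminyl-tRNA, with 208 against 579 and 534. TUFM, the mitochondrial elongation factor, was above the nearer control by 0.36, beyond its like-signal range of 0.28. MTRF1, a release factor, MTIF2, an initiation factor, and MTO1, a tRNA-modifying enzyme, were below the nearer control, at −0.46, −0.31 and −0.30. The differences of MTRF1, MTIF2 and MTO1 were within their like-signal ranges of 0.72, 0.42 and 0.56.

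**Figure D5:**
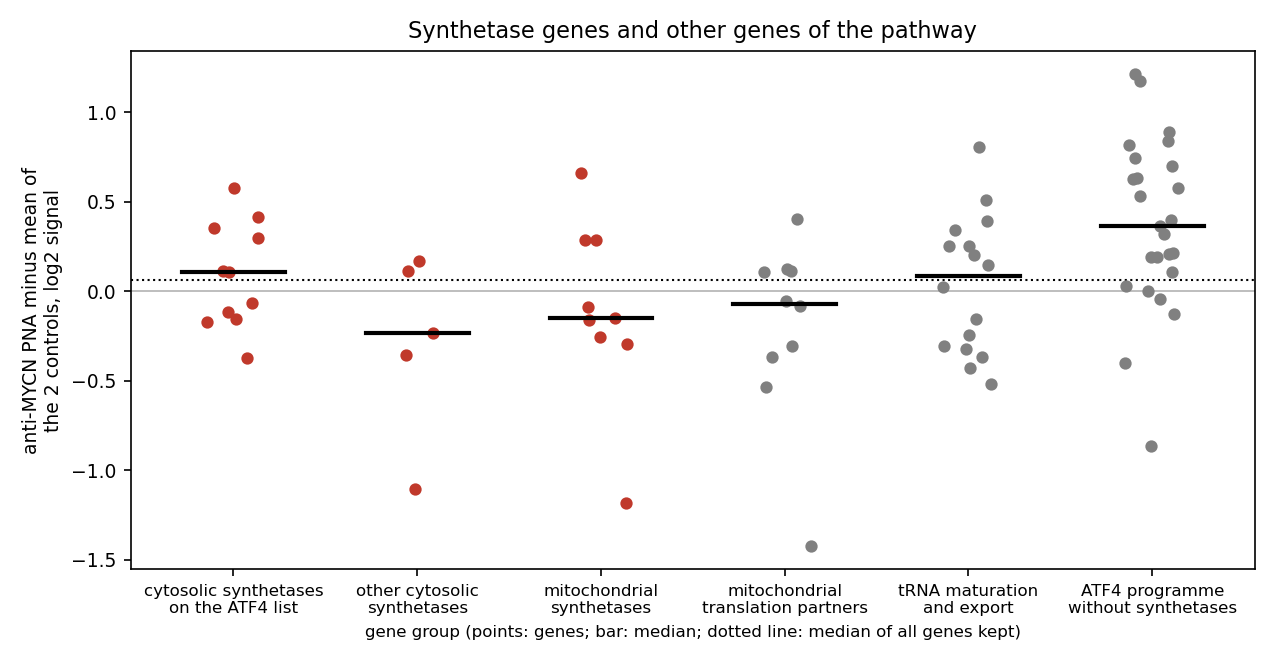
Difference of the anti-MYCN PNA array to the mean of the 2 controls, in log2 signal, with a point for each gene and a bar at the median of each group. The synthetase groups have medians of 0.11, −0.23 and −0.15, and the ATF4 programme without synthetases one of 0.37.

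Split by fold of the catalytic domain, class I enzymes had a median of −0.14 over 12 genes and class II enzymes one of 0.023 over 12, leaving out EPRS1, which holds a domain of each class. Class I had a median of −0.0017 against mutated PNA and −0.14 against untreated, and class II one of 0.078 and −0.096. Under median scaling the medians to the mean of the controls were −0.33 and −0.17, where that of all genes was −0.13. Both genes past 1.5-fold, RARS1 and YARS2, belong to class I. Of 12 reference transcripts 4 exceeded both controls by 1.5-fold or more, where 8.27% of all genes did, and none was as far below, where 7.35% were, with POLR2A, ACTB, GAPDH and PPIA at 1.14, 0.67, 0.66 and 0.59. Around MARS1, whose own probe sets were left out, 1 of 13 measured neighbours on chromosome 12 passed 1.5-fold over both controls, DDIT3, and none was as far below, against the same shares of all genes. DDIT3 is also counted in the ATF4 programme above, and its controls differed by −0.53, beyond its like-signal range of 0.37. By any amount 9 of the 13 were above both controls and 1 below, where 47.9% and 37.6% of all genes were. Under median scaling 6 were above and 6 below.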

How the data were processed

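Each array gives linear intensities, 1 per probe set, which the authors deposited. MAS5 and GCOS are the tools that the submitters' processing notes name. The 2% trimmed mean was 500.2 on all 3 arrays, and no further scaling was applied. Genes were named from GEO's platform annotation, in which 19064 of 22215 gene probe sets name 1 gene, 1043 several and 2108 none. Symbols were updated through Entrez identifiers in the RefSeq table of GRCh38.p14, which held 19052 of these and all 37 synthetase probe sets. Intensities below 23.4 (the pooled 25th percentile) were raised to it before log2 was taken. Probe sets averaging under 117 (the pooled 50th percentile) were left out, and the brightest one stood for its gene. A gene's like-signal range is what 95% of the genes in its class, 1 of 10 by mean signal, stay within between mutated PNA and untreated.

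With 1 array per condition there was no test. A gene counted when at least 1.5-fold from both controls in the same direction, read against the share of all 6745 genes that did. Synthetases are given in full. Of each other list up to 5 genes furthest from both controls are named. ASNS, SLC7A5, TRIB3 and MTHFD2 complete counts, and these and the cell type markers were named after their values were seen. The members, lists and rules were chosen with earlier results of these data known. The counting was checked on simulated data. Alternatives changed the scaling, filter, floor, choice of probe set and which arrays and genes entered. The work used matplotlib 3.10.9, scipy 1.17.1, pandas 2.3.3 and numpy 2.4.6 in Python 3.11.15.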

Additional observations from a re-analysis of the deposited data

How the results depend on the processing

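The count of 2 lower genes held under each alternative except the filter at the 75th percentile, which removed YARS2 with the other dim genes and left 1. The count of higher genes was 1 (AARS1) under quantile normalization. With the untreated array left out, chosen after seeing the data, it was 3 (AARS1, CARS2 and SARS2), and with the mutated PNA array left out it was 0. The cytosolic median against the mean of the controls turned to −0.17 under median scaling, to −0.027 with the median over probe sets and to −0.11 without _x_at and _s_at probe sets, and against mutated PNA to −0.11 and −0.0058 under the first and the last of these. Median scaling lowers the whole anti-MYCN PNA array, and the last tests 10 cytosolic genes in place of 16; the cause of the other change was not tested. The gap between the cytosolic and mitochondrial medians of mutated PNA minus untreated turned to −0.036 at the 75th percentile filter, which kept 4 mitochondrial genes. The mitochondrial median of that difference was −0.012 there, against −0.20 as reported. The gap for anti-MYCN PNA against the mean of the controls was 0.17, and 0.011 without _x_at and _s_at probe sets. Mitochondrial medians kept their sign throughout, and so did RARS1 and YARS2 wherever they were kept. No paired analysis was possible because each condition has 1 array. The number of arrays limits the precision.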
